A study of Mus musculus with 12 samples.

Results

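The genes examined here are the protein-coding neighbours of Rorb on mouse chromosome 19, measured by poly(A) RNA sequencing of whole brain. They were chosen by position and level, apart from genes left out by name. The rule asked for a start within 10 Mb of position 18930605 (GRCm38), the lower end of the Rorb gene (18930605 to 19111196). It also asked for a mean level of at least 1 CPM (expected counts scaled to equal library totals) over the 12 libraries. The start of a gene, Rorb included, is its lowest coordinate whatever its strand. Only for promoter sequences does start mean where transcription begins. Rorb itself, Aldh1a1, Myrf, Klf9, Syt7, Fth1 and genes with symbols beginning Kcn were left out by name. Of 197 protein-coding genes in this window, 7 were left out by name, 106 lay below 1 CPM and 84 remained, out of 38924 genes in the tables. Of the 84 genes, 54 start before Rorb and 30 after it. The rule itself used no difference between genotypes, but it was set with earlier results of these data known.

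The libraries came from brains of mice 6 weeks old, with 3 mice per genotype. Wild-type (WT) mice were C57BL/6J. The 3 mutant groups were homozygous for different Rorb alleles. Rorbh1/h1 mice (h1) were on C57BL/6J, Rorbh2/h2 mice (h2) on B6(Cg)-Tyrc-2J/J and Rorbh4/h4 mice (h4) on B6.129S7-Il1r1tm1Imx/J. Only h1 shared its background with WT, so that for h2 and h4 the Rorb allele and the strain background cannot be told apart. Each library held between 14513825 and 24694178 expected counts, and the h4 libraries (17667258 to 18388706) were all smaller than the WT libraries (20168835 to 21472438). The sexes were also unevenly spread: Xist was high in 3 of 3 WT, 1 of 3 h1, 1 of 3 h2 and 2 of 3 h4 libraries. Neuronal, astrocyte and oligodendrocyte markers were present in every library, and the summed pituitary markers stayed at or below 1.36 CPM. Rorb measured 18.4, 16.3 and 17.1 CPM in WT mice, 23.2, 33.1 and 22.6 in h1 mice, 31.1, 31.0 and 22.6 in h2 mice, and 9.11, 8.65 and 8.66 in h4 mice.

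Rorb encodes a nuclear receptor of the ROR family, a transcription factor that binds DNA as a monomer at an A/T-rich stretch followed by the core motif AGGTCA, and that is known for its roles in the retina, spinal cord and sensory cortex. Genes close together on a chromosome can share regulatory elements, and a mouse line homozygous for an allele is usually homozygous for the DNA around it as well. The window holds an olfactory receptor cluster and the Ms4a family of membrane proteins, both of which are little used in brain, beside enzymes, signalling proteins and transcriptional regulators that most neural cells use. Of the 106 genes under 1 CPM, 62 were olfactory receptor genes and 15 were Ms4a genes, and 66 were listed at 0 counts in every library.

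Promoter sequence was available from RefSeq (GRCm38.p6) for 69 of the 84 genes. The core motif AGGTCA, searched on both strands from 250 bases before to 50 bases after the start, was found in 11 of the 90 promoters listed for these genes (12.22%) and in 5340 of 32851 promoters of all genes (16.26%). The 11 promoters belong to 10 of the 69 genes (14.49%). A match describes these letters only, and no match says only that they are not in this window. The 250 bases before the start are shown for Psat1 (chr19:15925060-15925309, minus strand), Asrgl1 (chr19:9135567-9135816, minus strand) and Gnaq (chr19:16132434-16132683, plus strand), whose levels differed from WT in 1 mutant each, and for Zfand5 (chr19:21272028-21272277, plus strand), the nearest gene beyond Rorb to carry the motif. Capitals mark AGGTCA, which in Zfand5 begins 119 bases before the start. For Psat1, RefSeq lists 2 promoters and the first is shown, which lies inside the gene span used here (chr19:15904678-15947337).
Psat1: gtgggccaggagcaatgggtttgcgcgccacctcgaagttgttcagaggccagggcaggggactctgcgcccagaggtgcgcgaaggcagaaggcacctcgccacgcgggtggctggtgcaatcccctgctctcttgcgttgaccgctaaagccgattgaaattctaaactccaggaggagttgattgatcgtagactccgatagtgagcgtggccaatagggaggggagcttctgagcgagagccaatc
Asrgl1: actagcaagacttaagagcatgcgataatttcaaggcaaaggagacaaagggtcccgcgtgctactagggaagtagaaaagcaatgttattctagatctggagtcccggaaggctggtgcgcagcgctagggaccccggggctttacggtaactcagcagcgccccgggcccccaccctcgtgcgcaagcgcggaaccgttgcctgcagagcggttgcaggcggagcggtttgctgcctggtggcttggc
Gnaq: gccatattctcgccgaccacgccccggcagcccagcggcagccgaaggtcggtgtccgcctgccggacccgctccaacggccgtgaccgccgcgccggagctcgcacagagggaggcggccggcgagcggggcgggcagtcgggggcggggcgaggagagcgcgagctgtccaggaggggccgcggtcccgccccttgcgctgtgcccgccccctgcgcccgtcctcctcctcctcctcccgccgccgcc
Zfand5: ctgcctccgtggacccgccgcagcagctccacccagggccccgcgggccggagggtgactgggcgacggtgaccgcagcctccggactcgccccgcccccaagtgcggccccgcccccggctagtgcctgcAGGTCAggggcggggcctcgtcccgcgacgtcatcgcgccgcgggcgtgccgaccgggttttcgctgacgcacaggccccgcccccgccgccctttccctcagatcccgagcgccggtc
None of the 6 genes with both a changed level and a RefSeq promoter held AGGTCA, beside 14.49% of the 69 genes. With 6 genes, 0 matches cannot be told from this share. The level of Zfand5 was not called changed in any comparison.

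No difference was called between genotypes for most genes near Rorb. Of the 84 genes, 77 were called in none of the 6 pairwise comparisons (a gene was called at an adjusted p below 0.05 in edgeR's quasi-likelihood test over 16493 genes, fitted to all 12 libraries unless another fit is named), and the other 7 gave 11 calls. In h1 against WT, 1 gene was called, as higher, which is 1.19% of the 84 beside 0.625% of all genes called in either direction and 0.418% called higher. In h2 against WT, edgeR called 0 of the 84, beside 0.679% of all genes (0.34% higher and 0.34% lower). In h4 against WT, 3 genes were called (3.57%), beside 4.55% of all genes. Of these, 1 was higher, beside 1.64% of all genes, and 2 were lower, beside 2.91%. At an unadjusted p below 0.05, edgeR gave 5 of the 84 in h1 (9.82% of all genes), 5 in h2 (11.5% of all genes) and 13 in h4 (17.6% of all genes) against WT.

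Between mutants, edgeR called 1 gene in h2 against h1 (0.722% of all genes), 4 in h4 against h1 (4.64% of all genes) and 2 in h4 against h2 (3.22% of all genes). The gene in h2 against h1 was lower, beside 0.534% of all genes called lower and 0.188% higher. Those in h4 against h1 were 1 higher (2.11% of all genes) and 3 lower (2.53% of all genes). Those in h4 against h2 were 1 higher (1.54% of all genes) and 1 lower (1.68% of all genes). At an unadjusted p below 0.05, edgeR gave 9 (9.49% of all genes), 19 (19.1% of all genes) and 14 (16.8% of all genes) in these 3 comparisons. The median size of the log2 difference from WT was 0.063 in h1 mice, 0.061 in h2 and 0.0885 in h4 among the 84 genes. Over all genes tested, which include genes of lower level, it was 0.07, 0.07 and 0.08. Among protein-coding genes at 1 CPM or more on other chromosomes, the more similar set, it was 0.056, 0.060 and 0.074, slightly below the 84 genes in each mutant. The 95% interval of the difference from WT, not adjusted for the number of genes, lay within a 1.5-fold change either way for 75 genes in h1, 77 in h2 and 72 in h4 mice. For 72 genes it did so in all 3 mutants. Differences given for single genes are on the log2 scale of the edgeR fit. The other 12 genes had mean levels of 1.04 to 5.08 CPM, with a median of 1.59, beside a median of 32.2 CPM for the 72. For each of these 12 genes, a 1.5-fold change was not excluded in at least 1 mutant.

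**Figure D1:**
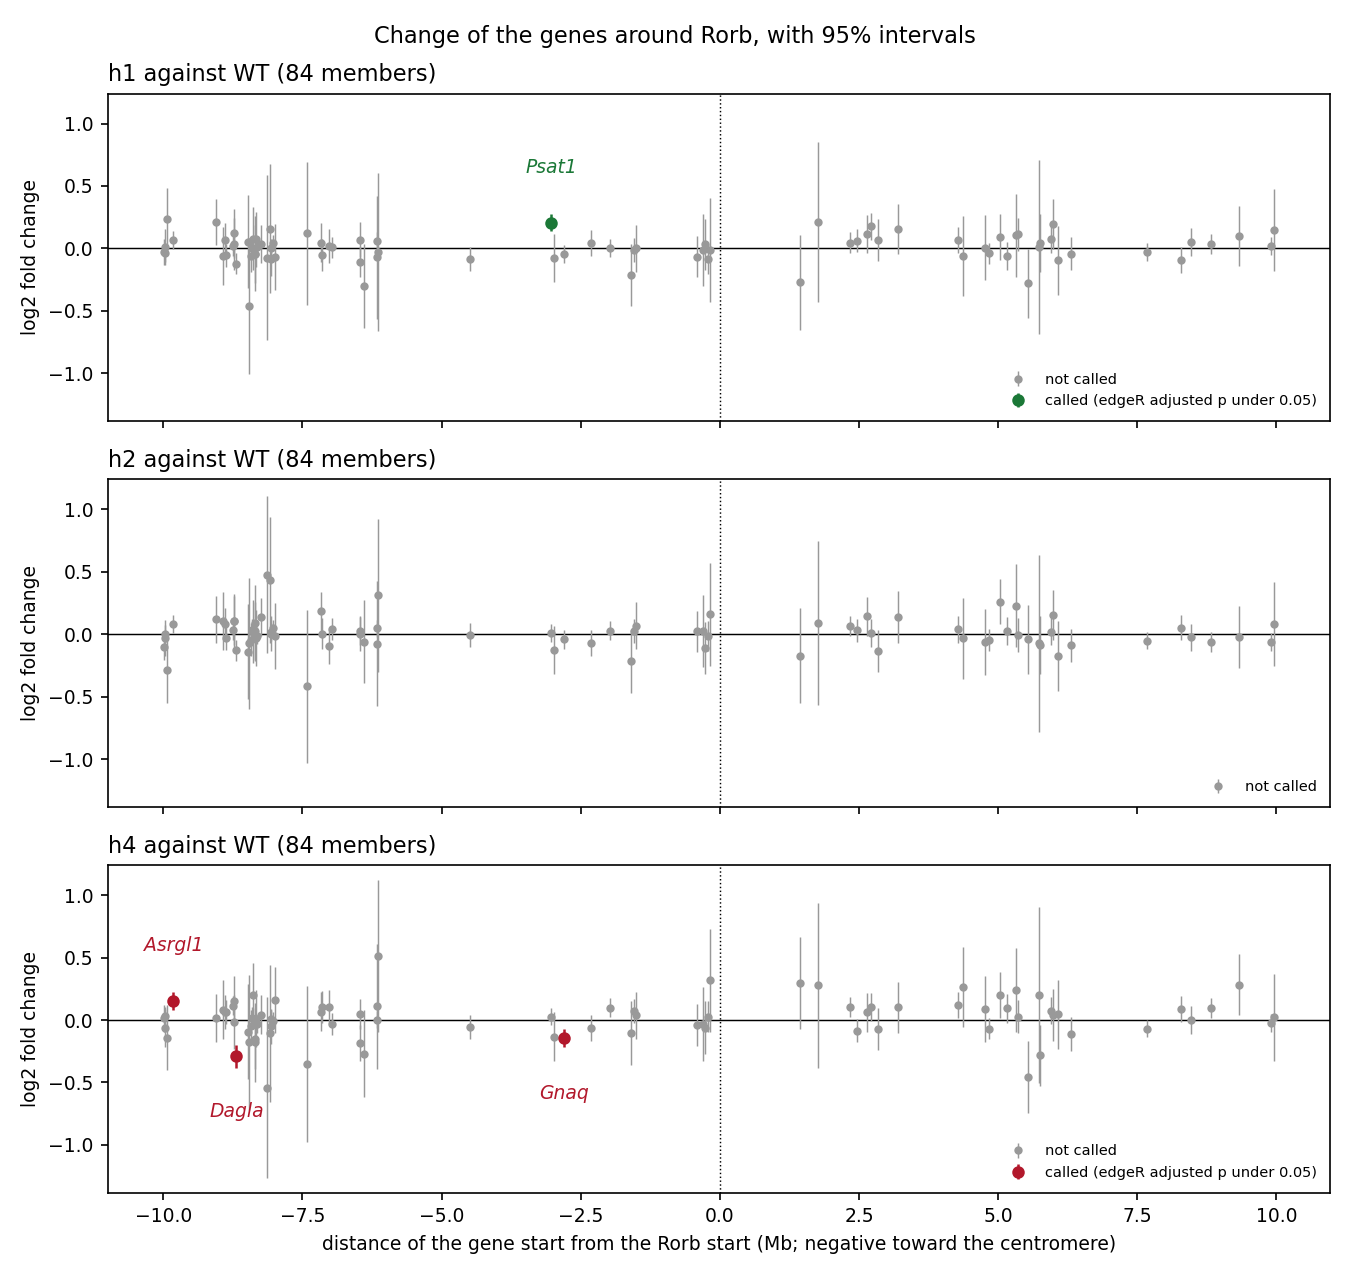
Log2 difference from WT (vertical axis) of each of the 84 genes against its distance from the Rorb start in Mb (horizontal axis), for h1, h2 and h4, with the 95% interval of every gene and the called genes coloured and named. Called genes number 1 in h1 mice, 0 in h2 and 3 in h4 mice, and none lies within 2 Mb of Rorb, where 11 of the 84 genes start.

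Counts of genes whose 3 libraries did not overlap between groups gave a like picture in the comparisons with WT. Such genes numbered 13 of 84 in h1 (15.5%, beside 14.9% of all genes), 11 in h2 (13.1%, beside 15.2%) and 15 in h4 (17.9%, beside 21.3%). Among mutants the numbers were 15 in h2 against h1 (17.9%, beside 15.5%), 29 in h4 against h1 (34.5%, beside 24.2%) and 17 in h4 against h2 (20.2%, beside 21.7%). In h4 against h1 the share without overlap lay above the background, and the share called, 4.76%, was close to the 4.64% of all genes. On the rest of chromosome 19, 384 protein-coding genes at 1 CPM or more were called at 0.781% in h1, 1.30% in h2 and 6.25% in h4 against WT. On other chromosomes the shares were 0.671%, 0.701% and 5.17%.

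The edgeR fit to all 12 libraries called no difference from WT in the genes closest to Rorb, which are few. Of the 11 genes starting within 2 Mb it called 0 in h1, h2 and h4, beside 0.625%, 0.679% and 4.55% of all genes. With 11 genes, 0 calls cannot be told from these shares. An unadjusted p below 0.05 in edgeR was found for 0 of them in h1 mice, 0 in h2 and 1 in h4 mice. Over all genes the shares were 9.82%, 11.5% and 17.6%. All 11 had a 95% interval within a 2-fold change in each mutant, and 9, 10 and 8 of them within 1.5-fold in h1, h2 and h4. Before Rorb, the nearest is Trpm6, a magnesium channel with a kinase domain, which measured 2.10, 1.44 and 1.83 CPM in WT mice and 2.08, 2.18 and 2.49 in h4 mice. Its values were 2.12, 1.39 and 1.79 in h1 mice and 1.86, 1.98 and 2.12 in h2 mice, and the 4 groups overlapped. Carnmt1, which methylates carnosine, stood at 10.4, 10.9 and 12.3 CPM in WT mice, 11.1, 12.02 and 11.1 in h1 mice, 8.78, 11.4 and 10.6 in h2 mice, and 11.9, 10.4 and 10.1 in h4 mice. Nmrk1, a nicotinamide riboside kinase of NAD synthesis, ranged from 4.44 to 6.28 CPM over the 12 mice, and its groups overlapped.

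Beyond Rorb the nearest is Anxa1, which encodes the calcium-dependent phospholipid-binding protein annexin A1. It measured 2.47, 3.07 and 3.07 CPM in WT mice, 1.92, 2.18 and 2.92 in h1 mice, 2.96, 2.71 and 2.08 in h2 mice, and 4.17, 3.37 and 3.11 in h4 mice. All h4 libraries stood above all others, yet the difference was not called against WT (adjusted p = 0.408 in edgeR) or h1 (0.57, adjusted p = 0.0705 in edgeR). Against h1 edgeR called it with no low-count filter (0.56, adjusted p = 0.0421) and without h1 replicate 3 (0.77, adjusted p = 0.0449). Aldh1a7, a close copy of the excluded Aldh1a1 whose reads may be shared with it, had the lowest mean of the 84, 1.04 CPM, followed by Ppp1r32, a phosphatase subunit (0.743 to 1.40 CPM over the 12 mice), and Lpxn, a focal adhesion protein (0.849 to 2.205 CPM). Zfand5, a zinc-finger protein linked to protein breakdown, was far higher at 163, 157 and 169 CPM in WT mice, 159, 172 and 171 in h1 mice, 176, 176 and 161 in h2 mice, and 179, 173 and 176 in h4 mice. Its h4 libraries lay above the WT libraries, without a call.

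As the deposited TPM, a level scaled to transcript length, the 84 genes ran from 0.58 for Trpm6 to 262 for Eef1g, a subunit of translation elongation factor 1, with a median of 15.03 TPM. Between mice of one genotype the median coefficient of variation ranged from 5.07% for h1, through 5.71% for h4 and 6.22% for h2, to 6.35% for WT.

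**Figure D2:**
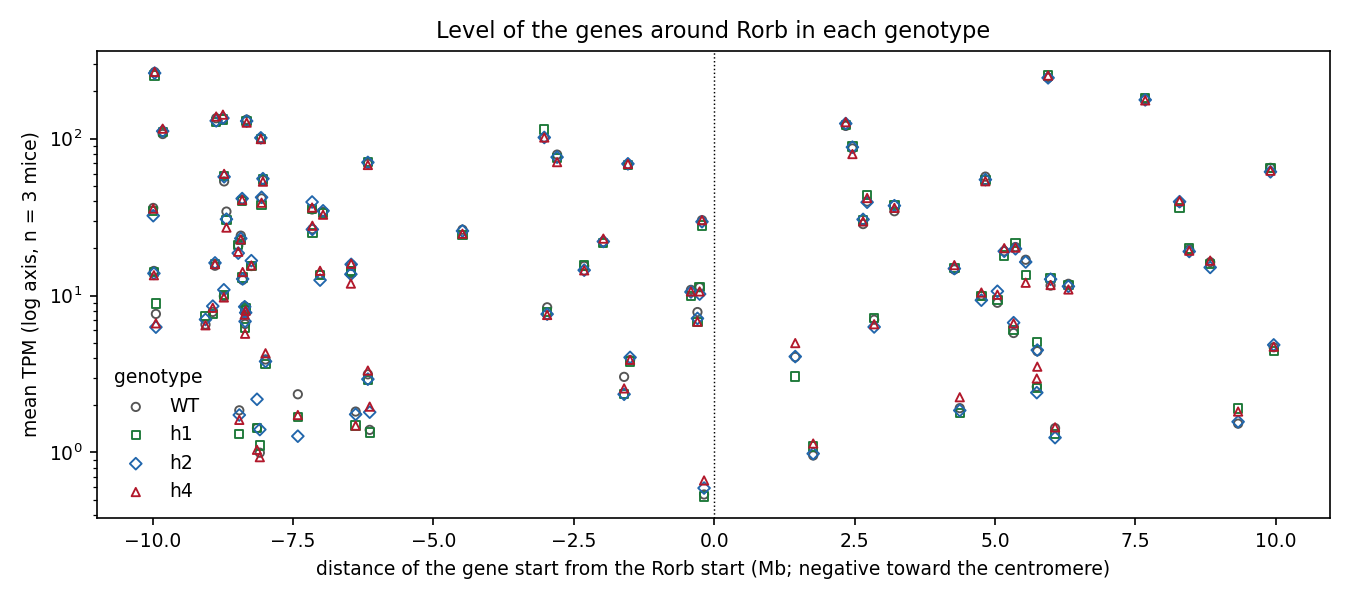
Mean TPM of each of the 84 genes in each genotype (vertical log axis, 3 mice per mean, 1 symbol per genotype) against the distance of its start from the Rorb start in Mb (horizontal axis). Means over all mice run from 0.58 to 262 TPM, and the 4 symbols of a gene mostly lie close together.

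Among 15 metabolic and mitochondrial enzymes, 1 was called higher in h1 and 1 higher in h4 against WT. Psat1 (ENSMUSG00000024640, chr19:15904678-15947337, minus strand) encodes phosphoserine aminotransferase, an enzyme of serine synthesis. It measured 124, 127 and 125 CPM in WT mice, 145, 146 and 139.8 in h1 mice, 123, 128 and 127 in h2 mice, and 130.4, 128 and 126 in h4 mice. The h1 mice stood apart from the 9 others, which overlapped. Psat1 rose in h1 by a log2 difference of 0.21 (SE 0.03, adjusted p = 0.00229 in edgeR). It was lower than in h1 by -0.19 in h2 (adjusted p = 0.00378 in edgeR) and by -0.18 in h4 (adjusted p = 0.00266 in edgeR). Against WT the interval ran from -0.06 to 0.08 in h2 and from -0.04 to 0.10 in h4 mice. Only among the 7 libraries with high Xist, where h1 has 1 library that is assumed to vary like the other groups, was the h1 call lost, at 0.21 with an adjusted p = 0.306 in edgeR. Oligodendrocyte markers were also higher in h1: their summed level was 13027 to 13402 CPM in h1 and 10098 to 11512 in WT mice. Of these 6 markers, 4 were called higher and none was at 0. In h2, where Psat1 was not called against WT, their sum was 11327 to 12270 CPM and 1 of 6 was called higher. Astrocyte markers had a median difference of 0.152 in h1 against WT, and 0 of 5 were called. The part of these markers in the result was not tested. Of the endothelial markers 2 of 4 were called lower in h1, with a sum of 124 to 139 CPM beside 154 to 155 in WT mice. Of the meningeal markers 1 of 4 was called lower in h1. In bulk tissue, fewer cells of a type and less RNA per cell cannot be told apart.

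Asrgl1 (ENSMUSG00000024654, chr19:9109868-9135636, minus strand), an asparaginase-like enzyme, measured 217, 217 and 230.3 CPM in WT mice, 228, 229 and 235 in h1 mice, 233, 233 and 236 in h2 mice, and 244, 253 and 245 in h4 mice. The h4 mice were the highest and did not overlap any other group. Asrgl1 rose in h4 against WT by 0.15 (SE 0.04, adjusted p = 0.0131 in edgeR). The call was lost without WT replicate 1 (0.14, adjusted p = 0.0905 in edgeR), WT replicate 2 (0.14, adjusted p = 0.0879 in edgeR), h4 replicate 1 (0.16, adjusted p = 0.0511 in edgeR) or h4 replicate 2 (0.13, adjusted p = 0.0647 in edgeR), and among the libraries with high Xist (0.12, adjusted p = 0.110 in edgeR). Gda, the guanine deaminase, overlapped between h4 (219, 232 and 212 CPM) and WT (244, 220.0 and 236). Against h1 (231, 253 and 241 CPM) its difference of -0.15 was not called (adjusted p = 0.0590 in edgeR), and 6 of 17 alternatives called it: DESeq2, no low-count filter, the 2 groups alone, and leaving out WT replicate 2 (-0.15), h1 replicate 1 (-0.18) or h4 replicate 2 (-0.19). Cbwd1, a COBW-domain protein, measured 11.3, 12.7 and 12.2 CPM in h1 mice and 10.1, 11.2 and 10.5 in WT mice, a difference of 0.20 that was not called (adjusted p = 0.512 in edgeR).

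Among 9 enzymes of lipids, phosphoinositides and glycans, 1 was called lower in h4 and 0 in h1 or h2 against WT in edgeR. Dagla (ENSMUSG00000035735, chr19:10245265-10304877, minus strand) encodes diacylglycerol lipase alpha, which makes the endocannabinoid 2-arachidonoylglycerol. It measured 98.6, 101 and 89.8 CPM in WT mice, 90.8, 87.2 and 86.5 in h1 mice, 86.9, 89.4 and 88.4 in h2 mice, and 79.3, 77.4 and 81.4 in h4 mice. The h4 mice were below all 9 others. Dagla fell by 0.29 (log2) in h4 against WT (SE 0.04, adjusted p = 0.000138 in edgeR), and all 17 alternatives kept that call. Neither h1 (-0.12, adjusted p = 0.259 in edgeR) nor h2 (-0.13, adjusted p = 0.175 in edgeR) gave a call. Without WT replicate 3, the lowest WT library, edgeR called both, with an adjusted p of 0.0306 and 0.0159. Dagla was also called lower in h4 than in h1 (-0.17, adjusted p = 0.0219 in edgeR) and in h2 (-0.16, adjusted p = 0.0366 in edgeR). The call against h1 was lost without h1 replicate 1 (-0.15) or 2 (-0.18) or h4 replicate 1 (-0.17) or 2 (-0.16), and that against h2 without any 1 of the 6 libraries compared (-0.18 to -0.15).

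The fatty acid desaturases of the same stretch were not called lower. Fads1, the delta-5 desaturase, measured 218, 229.8 and 240.1 CPM in WT mice and 241, 258 and 251 in h4 mice, a difference of 0.12 that was not called (adjusted p = 0.0885 in edgeR) except without WT replicate 3 (adjusted p = 0.0364). Fads2, the delta-6 desaturase, measured 88.7, 89.5 and 99.2 CPM in WT mice and 98.7, 95.2 and 97.8 in h4 mice, which overlapped. Abhd17b, which removes palmitate from proteins, measured 52.0, 56.3 and 51.5 CPM in h1 mice and 47.2, 45.6 and 49.6 in WT mice, a difference of 0.18 that was not called (adjusted p = 0.159 in edgeR). Astrocyte markers moved with h4: their sum was 1874 to 1979 CPM in h4 and 1609 to 1716 in WT mice, 4 of 5 were called higher and none was at 0. Of 4 choroid plexus markers, 1 was called higher. Of 6 neuronal markers 0 were called and 5 did not overlap between h4 and WT (21.3% of all genes). Their sum was 4594 to 4709 CPM in h4 and 4591 to 4730 in WT mice. The part of these markers in the h4 results was not tested.

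**Figure D3:**
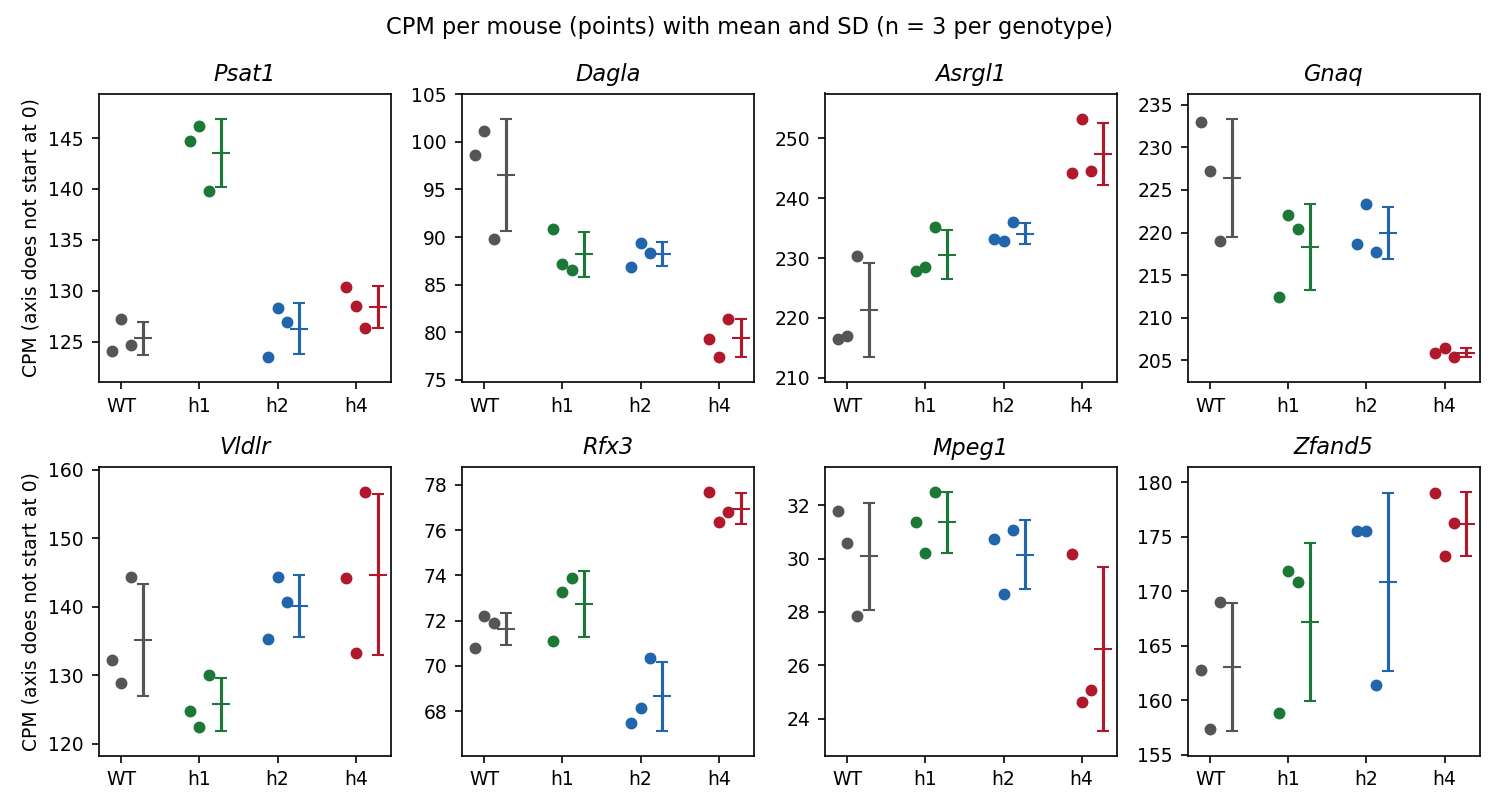
CPM in each mouse (points) of the 7 called genes and Zfand5, by genotype on the horizontal axis, with the mean and SD of 3 mice beside the points; the vertical axes do not start at 0. Psat1 stands higher in the 3 h1 mice, at 139.8 to 146 CPM, and Dagla lower in the 3 h4 mice, at 77.4 to 81.4 CPM.

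Of 10 signalling proteins, receptors, channels and transporters, 1 was called lower in h4 against WT and 1 higher in h4 against h1. Gnaq (ENSMUSG00000024639, chr19:16132831-16387463, plus strand) encodes the G-protein subunit that couples receptors to phospholipase C. It measured 233, 227 and 219 CPM in WT mice, 212, 222 and 220.4 in h1 mice, 219, 223 and 218 in h2 mice, and 206, 206 and 205 in h4 mice. The h4 mice were below the rest. Gnaq fell by 0.15 (log2) in h4 against WT (SE 0.04, adjusted p = 0.0161 in edgeR). The call was lost without WT replicate 1 (-0.12, adjusted p = 0.125 in edgeR), WT replicate 2 (-0.14, adjusted p = 0.0720 in edgeR), h4 replicate 1 (-0.15, adjusted p = 0.0585 in edgeR) or h4 replicate 3 (-0.15, adjusted p = 0.0673 in edgeR).

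Vldlr (ENSMUSG00000024924, chr19:27216484-27254231, plus strand), a receptor for reelin and lipoproteins, measured 132, 129 and 144 CPM in WT mice, 125, 122 and 130.0 in h1 mice, 135, 144 and 141 in h2 mice, and 144, 133 and 157 in h4 mice. The h1 mice were low and h4 did not overlap them, while WT overlapped both. Vldlr was higher in h4 than in h1 by 0.18 (SE 0.05, adjusted p = 0.0391 in edgeR). That call was lost in 9 of 17 alternatives, among them leaving out any of the 3 h1 libraries (0.16 to 0.21), h4 replicate 1 (0.18) or 3 (0.12), WT replicate 1 (0.18) or h2 replicate 3 (0.18), and taking Xist as a covariate (0.15, adjusted p = 0.0928 in edgeR). Between h4 and h1, 4 of 6 oligodendrocyte markers were called lower in h4 (a sum of 11356 to 12216 CPM beside 13027 to 13402). So were 1 of 6 neuronal and 1 of 3 oligodendrocyte precursor markers. Called higher were 1 of 5 astrocyte, 1 of 4 endothelial and 1 of 4 meningeal markers. Their part in the calls of h4 against h1 was not tested. Apba1, an adaptor that binds the amyloid precursor protein, ran from 180.4 to 205 CPM over the 12 mice. Slc1a1, a neuronal glutamate transporter, measured 113, 112 and 110.0 CPM in h2 mice and 119, 115 and 117 in WT mice, a difference of -0.06 that was not called (adjusted p = 0.497 in edgeR).

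Of 18 genes of transcription, chromatin, RNA processing and genome maintenance, none was called by edgeR against WT and 1 was called higher in h4 against h2. Rfx3 (ENSMUSG00000040929, chr19:27761721-28011166, minus strand) is a transcription factor of cilia genes. It measured 70.8, 72.2 and 71.9 CPM in WT mice, 71.1, 73.2 and 73.9 in h1 mice, 67.5, 68.2 and 70.4 in h2 mice, and 77.7, 76.4 and 76.8 in h4 mice. The h4 mice were the highest and the h2 mice the lowest. Rfx3 was higher in h4 than in h2 by 0.16 (SE 0.04, adjusted p = 0.0283 in edgeR), a call lost without h2 replicate 1 (0.14) or 2 (0.15), or without any 1 of the 3 h4 libraries (0.15 to 0.16), and in a fit of the 2 groups alone (0.15, adjusted p = 0.0544 in edgeR). Between h4 and h2, 2 of 5 astrocyte markers were called higher in h4 (a sum of 1874 to 1979 CPM beside 1672 to 1770). Called lower were 1 of 6 neuronal and 1 of 4 endothelial markers. The part of these markers was not tested. Against WT the h4 difference of Rfx3 was 0.09 (adjusted p = 0.192 in edgeR). Ddb1, part of a ubiquitin ligase for damaged DNA, had the highest mean CPM of the 84, 273, and its libraries ran from 264 to 281 CPM over the 12 mice. Smarca2, a chromatin remodelling ATPase, ran from 243 to 264 CPM. Incenp, of the chromosomal passenger complex, measured 12.01, 12.2 and 11.5 CPM in h1 mice and 11.1, 10.5 and 9.52 in WT mice, a difference of 0.21 that was not called (adjusted p = 0.420 in edgeR). Zfp91, a zinc-finger ubiquitin ligase that overlaps Cntf on the same strand, measured 196, 207 and 201 CPM in h1 mice and 193, 193 and 195 in WT mice. The difference of 0.06 was not called (adjusted p = 0.555 in edgeR).

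Of 7 immune genes, none was called by edgeR against WT and 1 was called lower in h4 against h1. Mpeg1 (ENSMUSG00000046805, chr19:12460779-12465283, plus strand) encodes perforin-2, a pore-forming protein of macrophages and microglia. It measured 31.8, 30.6 and 27.9 CPM in WT mice, 31.4, 30.2 and 32.5 in h1 mice, 30.7, 28.7 and 31.1 in h2 mice, and 30.2, 24.6 and 25.1 in h4 mice. One h4 mouse stood among the other groups and the other two below them. For Mpeg1 the log2 difference of h4 from h1 was -0.25 (SE 0.07, adjusted p = 0.0352 in edgeR), a call lost without any 1 of the 3 h1 libraries (-0.28 to -0.23) or h4 replicate 2 (-0.21) or 3 (-0.21), and with Xist as a covariate (-0.26, adjusted p = 0.0599 in edgeR). Without h4 replicate 1, edgeR called Mpeg1 lower in h4 against WT (-0.29, adjusted p = 0.0306) and against h2 (-0.29, adjusted p = 0.0406) as well. Of 5 microglia markers, edgeR called 0 in that comparison, and their sum was 193 to 199 CPM in h4 and 187 to 191 in h1 mice.

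The edgeR fit to all 12 libraries made no call among 11 membrane traffic genes or among 8 genes of junctions, cytoskeleton and matrix, 1 of which is Anxa1. Ahnak, a giant scaffold protein at the membrane, measured 67.2, 77.7 and 64.0 CPM in WT mice, 76.4, 93.8 and 73.9 in h1 mice, 52.6, 59.7 and 58.7 in h2 mice, and 62.2, 69.4 and 59.1 in h4 mice. The h2 mice were below WT and h1, by -0.28 against WT (adjusted p = 0.395 in edgeR), a difference that was not called. Against h1 the h2 difference was -0.52 (adjusted p = 0.105 in edgeR), which DESeq2 called (adjusted p = 3.95e-06) and which edgeR called with a replicate block (adjusted p = 0.000232). DESeq2 also called Ahnak lower in h4 than in h1 (-0.38, adjusted p = 0.0011), which edgeR did not (-0.37, adjusted p = 0.112). Kank1, a regulator of cortical actin, ran from 27.8 to 35.2 CPM over the 12 mice. Among the traffic genes Osbp, an oxysterol-binding protein, ran from 75.5 to 82.6 CPM, Stx3, a SNARE of exocytosis, from 30.8 to 37.3 CPM, and the membrane protein Tmem109 from 32.7 to 41.3 CPM. Fam189a2, a membrane protein, measured 13.6, 13.5 and 12.9 CPM in h2 mice and 9.94, 11.4 and 11.9 in WT mice, a difference of 0.26 that was not called (adjusted p = 0.200 in edgeR). Among the 12 genes in no role list, the edgeR fit to all 12 libraries called none. Fam122a, a regulator of protein phosphatase 2A that lies inside Pip5k1b on the same strand, measured 5.88, 5.87 and 5.504 CPM in WT mice and 4.39, 4.68 and 3.57 in h4 mice, a difference of -0.46 that was not called (adjusted p = 0.0628 in edgeR). It was called by edgeR with no low-count filter (-0.47, adjusted p = 0.0266), with Xist as a covariate (-0.54, adjusted p = 0.0236) and among the libraries with high Xist (-0.55, adjusted p = 0.0430). The library kit does not mark strand, so reads of overlapping or antisense genes cannot be told apart, and genes with near-identical copies are uncertain in the same way.

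**Figure D4:**
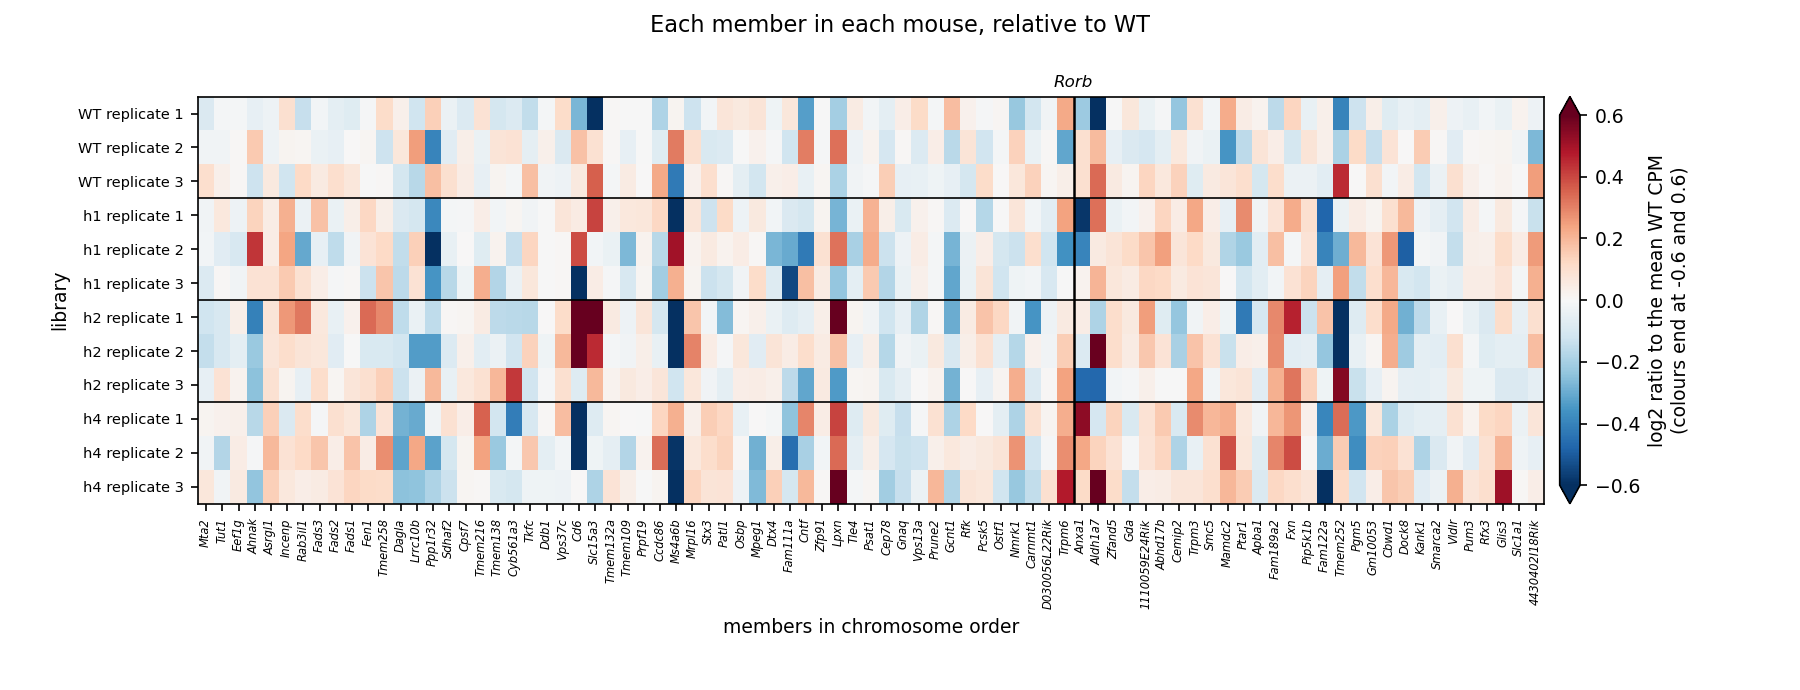
Log2 ratio of each gene's CPM to its WT mean, with the 12 mice in rows and the genes in chromosome order in columns, leaving out 1 gene that is not reported (red higher, blue lower, colours ending at 0.6 either way). Most cells are pale, and the strongest colours often differ between mice of 1 genotype.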

How the data were processed

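Whole-brain RNA was sequenced as 100-base read pairs from a kit that does not mark strand. Per the submitters' processing notes, Bowtie2 2.2.0 and RSEM 1.2.12 were used. Genome build and annotation: not given in the sources used here. For each mouse the authors deposited expected counts, TPM and gene lengths from RSEM. Here the expected counts were rounded, and edgeR 4.0.16 (quasi-likelihood, robust, TMM scaling, low-count filter) fitted 1 mean per genotype to 12 libraries and 16493 genes, with Benjamini-Hochberg adjustment. CPM is the expected count scaled to the library total. Positions come from GENCODE for GRCm38, matched by gene ID for 37607 of 38924 genes. Each library is 1 mouse, so p-values set the difference of genotype means against the spread between mice, estimated from all 12 libraries together. The common biological coefficient of variation was 0.0531. The genes and role lists were chosen with earlier results of these data known. Named genes were those called, the nearest 3 on each side of Rorb, up to 5 non-overlapping genes with the smallest p in each comparison with WT, the 3 of highest TPM in each role list, and the extremes of CPM; predicted genes were counted only, and 1 gene is counted but not reported by name here. The test was checked on simulated data. Alternatives were DESeq2 1.42.0, no filter, fits of 2 groups, Xist as a covariate, 5′ ends, a 5 CPM minimum, a replicate block and each library left out.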

Additional observations from a re-analysis of the deposited data

How the results depend on the processing

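DESeq2 called 2 genes in h2 against h1 (Ahnak beside Psat1) and 7 in h4 against h1, beside 0.982% and 6.59% of all genes it tested. There edgeR called 1 and 4, beside 0.722% and 4.64%. With Xist as a covariate 2 were called in h4 against h1 (3.12% of all genes). A fit of only the 2 groups called 1 in h4 against h2 (2.94% of all genes). An alternative added after seeing the data kept only the 7 libraries with high Xist. There h1 and h2 have 1 library each, assumed to vary like the other groups, so only differences are given here. In h4 against WT, Dagla was -0.28, Gnaq -0.16, Fam122a -0.55 and Asrgl1 0.12. Psat1 was 0.21 in h1 against WT, -0.17 in h2 against h1 and -0.20 in h4 against h1. In h4 against h2, Dagla was -0.18 and Rfx3 0.16. Leaving out each library in turn gave 1 to 2 genes in h1 against WT (0.132% to 0.993% of all genes). It gave 0 to 1 in h2 against WT (0.108% to 2.08% of all genes) and 1 to 4 in h4 against WT (1.38% to 6.65%). Between mutants it gave 1 in h2 against h1 (0.264% to 0.958% of all genes). There were 1 to 5 in h4 against h1 (1.88% to 5.36% of all genes) and 0 to 3 in h4 against h2 (1.5% to 3.7%). The cause of these shifts was not tested.

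Labels number the h1 and h2 mice 1 to 3, but same-numbered mice did not deviate together (correlations -0.21, -0.16 and 0.05). A replicate block called 2 genes in h2 against h1 (1.26% of all genes). Differences near 0 that were never called changed sign. Gnaq in h2 against h1 was -0.0012 with DESeq2 and -0.0216 to 0.0143 with a library left out. Mpeg1 in h2 against WT was 0.0011 with no filter, 0.0048 with the Xist covariate and -0.0571 to 0.0439 with a library left out. With a library left out, Asrgl1 in h2 against h1 was -0.0002 to 0.0256, Dagla there -0.0226 to 0.0100, Psat1 in h2 against WT -0.0051 to 0.0227 and Vldlr in h4 against h2 -0.0231 to 0.0882. With only high-Xist libraries Psat1 in h4 against h2 was -0.0211 and Rfx3 in h1 against WT -0.0075. All 12 genes whose interval against WT reached 1.5-fold had mean levels of at most 5.08 CPM.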

Other observations

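The estimated transcript lengths that the authors deposited differed without overlap, and by over 10%, for 2 of the 84 genes in h1 against WT (1.26% of all genes tested). Nmrk1 averaged 1627 bases in h1 and 1475 in WT, and Ms4a6b averaged 2358 bases in h1 and 1790 in WT. Both differences rest on WT replicate 3, with 1369 bases for Nmrk1 and 1022 for Ms4a6b: without it the ratios of h1 to WT were 1.064 and 1.085, and neither passed 10%. Nmrk1 also fell below that limit without h1 replicate 2, at a ratio of 1.097. In h2 and h4 against WT, 0 of the 84 genes differed without overlap by over 10%, beside 1.32% and 1.57% of all genes tested.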
